A study of Mus musculus with 9 samples.

Results

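The comparison set all cells that received either Olig factor against cells that received green fluorescent protein (GFP). The Olig side pooled 6 libraries, 3 labelled Olig2 and 3 labelled Olig3, and the other side was the 3 GFP libraries, so that all 9 of the 9 libraries of the series entered. Every gene of the count table was considered. A change was called common only where the pooled test passed and the log2 change of each factor against GFP had the same sign. That condition on the sign alone was met by 33.5% of the genes tested on the higher side and 36.5% on the lower side. The picked cells are labelled retinal ganglion cells, which send the axons of the optic nerve to the brain. The question set by this design is which transcripts differ from the GFP control whichever of the 2 factors was delivered.

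All animals were adult male mice of wild-type genotype, and the sources used here name no strain. The Olig2 group received an AAV2 vector for Olig2, the Olig3 group one for Olig3 and the GFP group one for GFP, in each case 1.5 µL into the vitreous. All 3 groups carried the optic nerve crush, and the labels give 14 days both for the virus and for the crush, so no group is uninjured. Beads carrying a CD90.2 (Thy1) antibody enriched the cells, 10 to 20 of which (the labels vary) were then chosen under fluorescence for each library, and cDNA was amplified over 20 cycles without molecular identifiers. The labels do not say which promoter drove the transgenes, whether the Olig vectors also carried GFP, or whether each library came from its own mouse. The p-values below therefore speak only of the scatter among these libraries, part or all of which may be technical. The series title names the vector Olig1/2, and the sample labels were followed.

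Olig2 and Olig3 belong to the basic helix-loop-helix (bHLH) transcription factors. Such factors pair with a partner bHLH protein and bind short DNA sites called E-boxes, whose letters are CANNTG, and Id proteins hold the partner away from DNA. Olig2 is best known for motor neuron and oligodendrocyte specification, where it acts largely as a repressor, and Olig3 for the dorsal spinal cord and hindbrain. Ganglion cells that survive an optic nerve crush express stress and growth-associated genes such as Atf3 and Gap43, and few of them regrow an axon without help.

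Total counts ran from 5355691 to 6979851 a library. A count of 0 allows up to 3 counts, which was 0.430 to 0.560 counts per 1000000 counts of the library (CPM), and such floors and all intervals below cover counting error only. Between 11919 and 14872 genes had 10 or more counts in the Olig libraries, against 14975 to 15196 in the GFP libraries. Olig3 libraries 1 and 3 had the fewest detected genes, 16188 and 14434. Malat1, a nuclear long noncoding RNA, took 6.15 to 11.7% of the counts in Olig2 libraries 2 and 3 and Olig3 library 2, called the 3 Malat1-rich libraries here, and 2.65 to 4.14% of the counts elsewhere. Rod photoreceptor genes took 7.69 to 18.5% of the counts in the Olig libraries and 5.82 to 8.77% in the GFP libraries, while ganglion cell markers summed to 311 to 685 CPM in the Olig libraries and 1249 to 2534 CPM in the GFP libraries. The label of ganglion cells thus stands beside a far larger share of rod transcripts in every library. Rbpms, a pan-ganglion-cell RNA-binding protein, lay at 0 to 10.6 CPM in the Olig libraries and 10.6 to 21.3 CPM in the GFP libraries. In such pools, fewer cells of a type and less RNA per cell cannot be told apart.

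The delivered factors were read mainly in the libraries named for them. Olig2 (chr16:91225457-91228677, mm10, + strand) had 114, 97 and 21 counts in the Olig2 libraries, 6, 4 and 0 in the Olig3 libraries and 0 in each GFP library. Over the pooled Olig libraries that is at least 42.5-fold higher than a floor of 3 counts over the GFP group, but the pooled test did not pass (edgeR quasi-likelihood test, Benjamini-Hochberg adjusted p = 0.313). Olig3 (chr10:19356533-19358604, + strand) had 0, 5 and 7 counts in the Olig2 libraries, 172, 113 and 597 in the Olig3 libraries and 13, 0 and 40 in the GFP libraries. Its pooled log2 change was 3.29 (SE 1.78, edgeR adjusted p = 0.689). Olig1, the remaining family member, had at most 1 count in a library and was not tested. Each factor was therefore highest in its own group of the Olig side, and a test that pools the groups counts that difference as spread. Its own group alone against GFP did not pass for either factor (edgeR adjusted p = 0.375 for Olig2 and 0.252 for Olig3). Olig2 lay at 16.3, 23.1 and 3.77 CPM in the Olig2 libraries, and Olig3 reached 5.36 CPM in GFP library 3.

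Few transcripts passed as common to both factors. Of 15609 genes tested, 2 rose in the Olig libraries, which is 0.0128% of the genes tested, and 9 fell, which is 0.0577% (edgeR quasi-likelihood F test of 6 against 3 libraries, Benjamini-Hochberg adjusted p under 0.05, same direction in each factor). In either direction they make up 0.0705% of the genes tested. The 2 that rose were Pcp2 and Pet100, which overlap on the genome. The 9 that fell were Cd63, Irf7, Rbm17, Sdcbp, Lrrc2, Ift57, Cryab, the predicted gene Gm47283 and the unnamed gene ENSMUSG00000095041. In all 11, which were selected for a difference between the sides, the 6 Olig libraries lay on 1 side of the 3 GFP libraries, wholly above in 2.93% and wholly below in 4.26% of all genes tested. In all 11 each factor alone had an unadjusted edgeR p under 0.05 against GFP, as did 1.58% of the genes tested on the higher side and 1.32% on the lower side. Both factors were set against the same 3 GFP libraries, so these are not separate pieces of evidence. Tested alone, 4 of the 11 passed the adjusted threshold in Olig2 against GFP, where 0.0513% of the genes tested did, and 6 passed in Olig3 against GFP, where 0.205% did. Without Olig2 library 1, Olig2 library 3 or Olig3 library 2, 0 genes passed in either direction, and without each of the GFP libraries or Olig2 library 2, 0 rose and 1 fell. Without Olig3 library 1, 2 rose and 4 fell, and without Olig3 library 3, 3 rose and 14 fell. Without the 3 Malat1-rich libraries, 0 passed in either direction, and without Olig3 libraries 1 and 3, 8 rose and 42 fell.

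**Figure D1:**
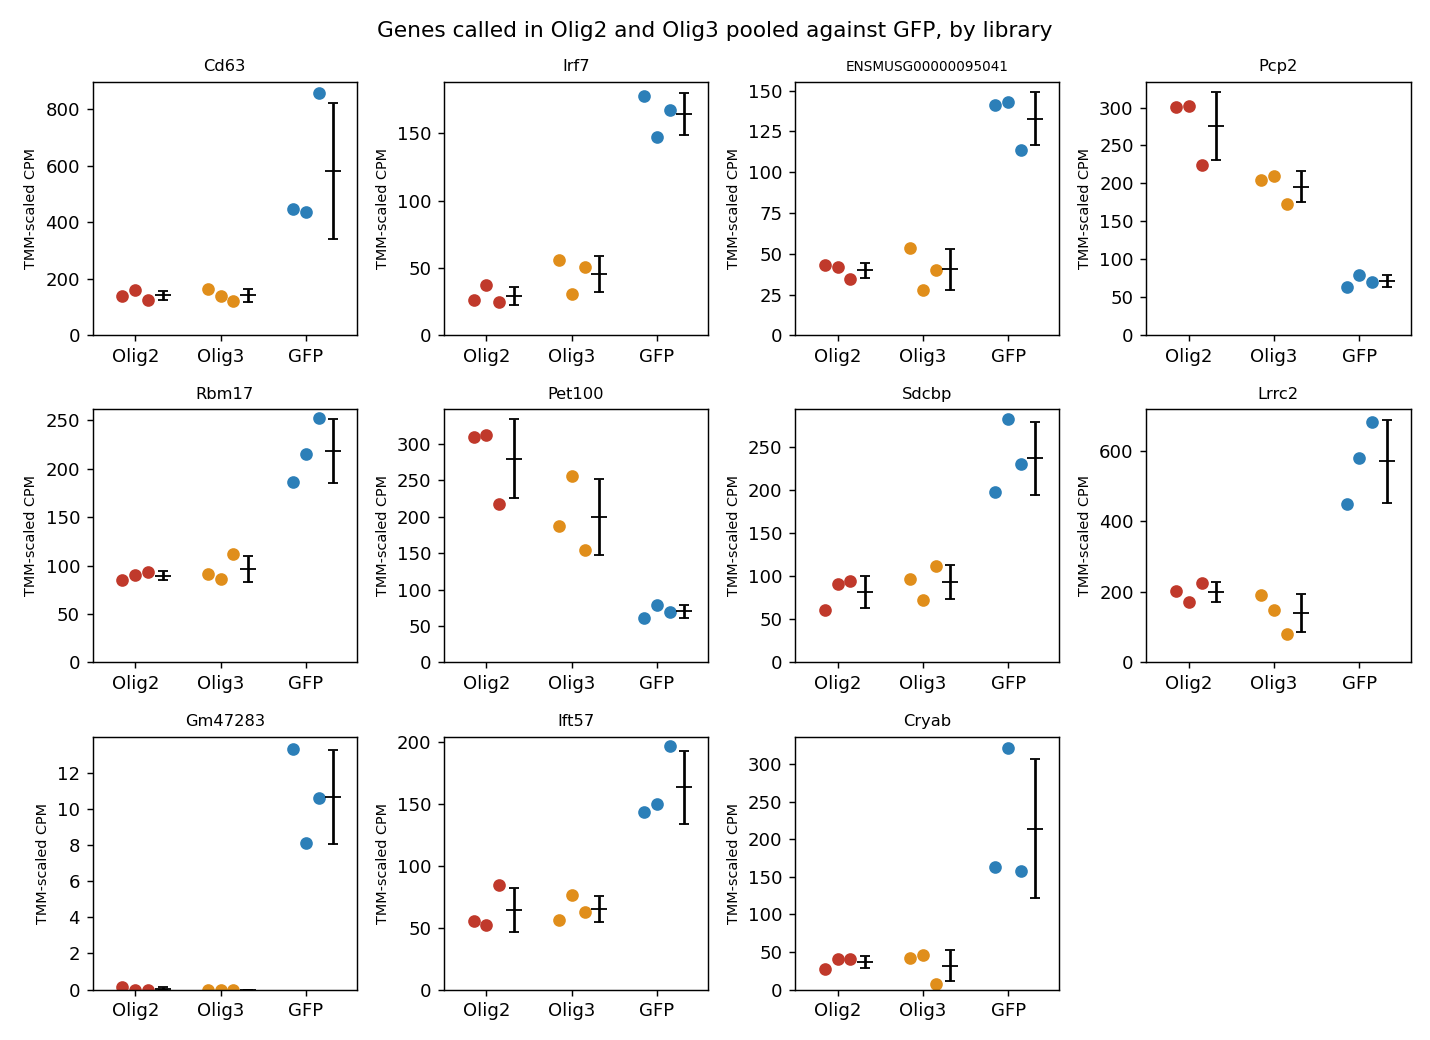
TMM-scaled CPM (y axis, from 0) of the 11 genes that passed in Olig2 and Olig3 pooled against GFP, in the Olig2, Olig3 and GFP libraries (x axis). Each point is 1 library and the black mark is the group mean with its SD (n = 3). The 6 Olig points lie below the 3 GFP points in the 9 genes that fell and above them in Pcp2 and Pet100.

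The promoters of 4 of these genes are shown because Olig factors act through E-boxes: Cd63, Irf7 and Pcp2 are the named genes with the smallest p, and Lrrc2 has the most E-boxes of the windows found. Each window is 250 bases before to 50 after a RefSeq transcript start on GRCm38.p6, 5′ to 3′ on the gene's strand, and capitals mark each CANNTG, a pattern that reads the same on both strands. The Cd63 window is chr10:128909095-128909394 (+), inside the span given for the gene by GENCODE, the Irf7 window chr7:141266375-141266674 (-), the Pcp2 window chr8:3625498-3625797 (-), the first of 4 listed for that gene, and the Lrrc2 window chr9:110951295-110951594 (+).
Cd63: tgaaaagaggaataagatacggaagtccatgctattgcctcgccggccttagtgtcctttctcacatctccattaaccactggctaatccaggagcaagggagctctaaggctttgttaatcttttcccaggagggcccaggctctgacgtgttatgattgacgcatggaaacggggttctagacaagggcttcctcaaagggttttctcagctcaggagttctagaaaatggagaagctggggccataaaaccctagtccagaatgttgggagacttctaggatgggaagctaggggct
Irf7: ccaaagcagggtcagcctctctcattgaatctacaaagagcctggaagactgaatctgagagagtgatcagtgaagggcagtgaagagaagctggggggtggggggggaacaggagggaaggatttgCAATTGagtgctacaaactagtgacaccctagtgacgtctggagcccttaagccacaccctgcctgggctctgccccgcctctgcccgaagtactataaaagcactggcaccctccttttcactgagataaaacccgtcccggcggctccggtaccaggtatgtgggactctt
Pcp2: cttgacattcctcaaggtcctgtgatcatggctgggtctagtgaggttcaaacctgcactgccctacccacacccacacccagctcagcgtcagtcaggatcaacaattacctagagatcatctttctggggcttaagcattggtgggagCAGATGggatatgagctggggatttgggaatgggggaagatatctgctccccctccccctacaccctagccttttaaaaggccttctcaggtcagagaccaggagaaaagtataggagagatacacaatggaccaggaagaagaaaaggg
Lrrc2: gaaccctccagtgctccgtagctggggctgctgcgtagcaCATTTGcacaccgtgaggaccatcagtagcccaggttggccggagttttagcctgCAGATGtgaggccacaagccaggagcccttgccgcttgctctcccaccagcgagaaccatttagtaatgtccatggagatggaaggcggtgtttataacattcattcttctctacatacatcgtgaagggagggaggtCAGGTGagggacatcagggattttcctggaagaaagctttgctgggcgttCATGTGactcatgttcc
The Cd63 window holds no E-box, the Irf7 window 1 (CAATTG), the Pcp2 window 1 (CAGATG) and the Lrrc2 window 4. RefSeq windows were matched for 7 of the 11 genes, 10 windows in all, of which 7, or 70.0%, hold an E-box, against 64.3% of the 14101 windows of the genes tested and 72.3% of all 32851 windows. CATATG and CAGCTG, E-boxes of fixed middle letters, are in 0 of the 10 windows, and in 1.89 and 15.6% of the windows of the genes tested. Of the 7 E-box windows 4 are overlapping windows of Pcp2, so by gene 4 of 7 hold an E-box, and the difference from promoters at large was not tested. A match describes letters, not a bound site.

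Cd63 had the smallest p of the genes that fell. Cd63, a tetraspanin found in late endosomes and on exosomes, had 138, 159 and 126 CPM in the Olig2 libraries, 165, 140 and 121 CPM in the Olig3 libraries, and 447, 438 and 859 CPM in the GFP libraries. The Olig libraries sat close together and far below the GFP libraries. Cd63 (chr10:128900989-128912822, + strand) averaged 141 ± 17.6 CPM in the Olig libraries (SD, n = 6) and 581 ± 241 CPM in the GFP libraries (n = 3), 4.11-fold lower in the Olig libraries (log2 change -2.04, SE 0.224, edgeR quasi-likelihood adjusted p = 0.0108). The log2 change was -2.04 in Olig2 and -2.04 in Olig3. Cd63 passed in 6 of the 9 fits that left out 1 library, and the adjusted p rose to at most 0.0643 without Olig2 library 1, Olig2 library 3 or Olig3 library 2. Of the 11 genes it was the one that kept its call most often.

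Sdcbp codes for syntenin, an adaptor that binds Cd63 and syndecans and takes part in exosome formation. It had 60.5, 90.8 and 94.7 CPM in the Olig2 libraries, 96.9, 72.5 and 112 CPM in the Olig3 libraries, and 199, 283 and 231 CPM in the GFP libraries. The 6 Olig values again lay below the 3 GFP values. Sdcbp (chr4:6365650-6408423, + strand) averaged 87.9 ± 18.4 CPM in the Olig libraries and 237 ± 42.5 CPM in the GFP libraries, 2.70-fold lower in the Olig libraries (log2 change -1.43, SE 0.213, edgeR adjusted p = 0.0382). Of its exonic bases, 78 are shared with Nsmaf on the other strand. The adjusted p stayed under the threshold only when Olig3 library 3 was the library left out, and ran from 0.0179 to 0.184 over the 9 such fits.

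The list of tetraspanin, endosome and lysosome genes, chosen with earlier results of these data known, held 25 genes, all in the table and all tested. Of these, 12 lay lower in the Olig libraries at an unadjusted edgeR p under 0.05 and 0 lay higher, against a background of 3.93% of genes lower and 4.43% higher. The count was 6 without GFP library 1, 7 without GFP library 3 and 6 without the 3 Malat1-rich libraries. Only Cd63 of this list passed after adjustment over all genes. The median difference of the list in mean log2 CPM was -0.66 pooled, -0.51 in Olig2 and -0.66 in Olig3, beside -0.07, 0.06 and -0.18 over all genes tested. Ctsb, a lysosomal cysteine protease, lay at 704, 856 and 897 CPM (lowest, median and highest) in the Olig libraries, against 1227 to 1675 CPM in the GFP libraries (log2 change -0.79, edgeR adjusted p = 0.150). Ctsl, a related protease, lay at 85.0, 114 and 121 CPM in the Olig libraries, against 133 to 288 CPM in the GFP libraries (log2 change -0.94, adjusted p = 0.198), and shares 1742 exonic bases with Gm47123 on the other strand, as Ctsb shares 774 with Fdft1. Both proteases had libraries that did not overlap between the sides, without passing. Lamp1, a membrane protein of lysosomes, lay at 117 to 246 CPM in the Olig libraries and 251 to 311 CPM in the GFP libraries (adjusted p = 0.438). The summed level of the list was 2764 to 4519 CPM in the Olig libraries and 5891 to 6881 CPM in the GFP libraries.

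Irf7, the interferon regulatory factor that amplifies type I interferon responses, was the gene with the next smallest p. It had 26.0, 37.2 and 24.9 CPM in the Olig2 libraries, 56.2, 30.5 and 50.5 CPM in the Olig3 libraries, and 178, 147 and 168 CPM in the GFP libraries. The GFP libraries were nearly level with each other and well above each Olig library. Irf7 (chr7:141262706-141266481, - strand) averaged 37.5 ± 13.1 CPM in the Olig libraries and 164 ± 15.8 CPM in the GFP libraries, 4.37-fold lower in the Olig libraries (log2 change -2.13, SE 0.271, edgeR adjusted p = 0.0199). It shares 45 exonic bases with Phrf1 on the other strand. The adjusted p was under the threshold without Olig3 library 1 and without Olig3 library 3, and over it without each of the other 7 libraries, the highest being 0.139.

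Irf7 was the 1 member of the interferon response list that passed. Of 40 on the list 37 were tested, and 13, Irf7 included, lay lower and 1 higher at an unadjusted p under 0.05, and without GFP library 3 the count lower was 6. The list's median was -1.51 pooled, -0.74 in Olig2 and -1.88 in Olig3. Usp18, a protease that restrains interferon signalling, lay at 7.70, 16.7 and 32.1 CPM in the Olig libraries, against 35.5 to 124 CPM in the GFP libraries (log2 change -2.07, edgeR adjusted p = 0.149). Stat2, a subunit of the interferon-activated transcription factor, lay at 11.5, 30.7 and 37.5 CPM in the Olig libraries, against 48.1 to 90.4 CPM in the GFP libraries (adjusted p = 0.202). The member that lay higher was the chemokine Ccl5, at 0.147, 14.0 and 88.3 CPM in the Olig libraries and 0 to 1.27 CPM in the GFP libraries, with overlap between the sides (adjusted p = 0.311). The summed level of the list was 393 to 1062 CPM in the Olig libraries and 1289 to 3057 CPM in the GFP libraries, so the sides did not overlap. Microglia and macrophage genes, which can carry interferon transcripts, summed to 126 to 1037 CPM in the Olig libraries and 131 to 1253 CPM in the GFP libraries, with 2 of 17 tested members higher and 0 lower at an unadjusted p under 0.05. Their median was 0.16, and it changed sign without GFP library 1 (-0.53, with 0 higher and 1 lower), Olig2 library 3 (-0.12, 0 and 0), Olig3 library 2 (-0.19, 0 and 0) or the 3 Malat1-rich libraries (-0.94, 0 and 1), so no direction is read from this list. The counts were also 0 and 0 without GFP library 2 or Olig2 library 2, and 1 and 0 without Olig2 library 1 or Olig3 library 1. The part of such cells in the interferon genes was not tested.

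Cryab, the small heat shock protein alpha-B crystallin, is made in the lens and in stressed cells and glia. It had 27.0, 40.8 and 40.9 CPM in the Olig2 libraries, 42.5, 45.8 and 7.78 CPM in the Olig3 libraries, and 164, 321 and 158 CPM in the GFP libraries. Olig3 library 3 was the lowest, and the sides did not overlap. Cryab (chr9:50751325-50756636, + strand) averaged 34.1 ± 14.4 CPM in the Olig libraries and 214 ± 92.4 CPM in the GFP libraries, 6.28-fold lower in the Olig libraries (log2 change -2.65, SE 0.419, edgeR adjusted p = 0.0443). It shares 252 exonic bases with Hspb2 on the other strand, and its adjusted p ran from 0.00883 to 0.177 when 1 library was left out, under the threshold without Olig3 library 3 alone.

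Lens genes, among them Cryab itself, lay low beside it. All 13 of the 18 lens genes that were tested lay lower at an unadjusted p under 0.05, 6 without GFP library 2 and 8 without the 3 Malat1-rich libraries. These tested members passed the low-count filter largely through the GFP libraries, so their number says little by itself. The list summed to 27.8 to 389 CPM in the Olig libraries and 303 to 4608 CPM in the GFP libraries, with GFP library 3 the lowest of its side and within the range of the Olig libraries. Cryba4, a lens structural crystallin, lay at 0, 0.533 and 3.5 CPM in the Olig libraries and 6.96 to 97.4 CPM in the GFP libraries (edgeR adjusted p = 0.119). In GFP library 3 the lens list summed to 303 CPM and Cryab lay at 158 CPM, in GFP library 2 at 4608 and 321 CPM, and the part of lens RNA in the Cryab difference was not tested. The general heat shock chaperone list had a median of -0.08, near that of all genes.

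The other genes that fell belong to splicing, cilia and uncertain roles. Rbm17, a splicing factor, had 84.9, 90.1 and 93.7 CPM in the Olig2 libraries, 91.1, 86.3 and 112 CPM in the Olig3 libraries, and 186, 215 and 252 CPM in the GFP libraries. Its Olig values were the most even of the genes that fell except for Olig3 library 3, which stood above the rest. Rbm17 (chr2:11585437-11604153, - strand) averaged 93.0 ± 9.81 CPM in the Olig libraries and 218 ± 33.1 CPM in the GFP libraries, 2.34-fold lower in the Olig libraries (log2 change -1.23, SE 0.174, edgeR adjusted p = 0.0319, 0.0121 to 0.184 with 1 library left out, under the threshold without Olig3 library 3 alone).

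Ift57, a component of the intraflagellar transport complex that builds cilia, had 55.4, 52.2 and 84.5 CPM in the Olig2 libraries, 56.0, 76.3 and 62.9 CPM in the Olig3 libraries, and 144, 150 and 197 CPM in the GFP libraries. The sides were separate, with a mean of 64.6 ± 13.0 CPM in the Olig libraries and 163 ± 29.2 CPM in the GFP libraries, 2.53-fold lower in the Olig libraries (log2 change -1.34, SE 0.211, edgeR adjusted p = 0.0443). Ift57 (chr16:49699233-49765126, + strand) lost its call when any 1 library was left out (adjusted p 0.0512 to 0.302). It shares 225 exonic bases with the antisense gene Gm15518, which lay at 22.5 to 39.1 CPM in the Olig libraries and 57.8 to 82.9 CPM in the GFP libraries.

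Lrrc2, a leucine-rich repeat protein, had 202, 170 and 226 CPM in the Olig2 libraries, 191, 148 and 81.7 CPM in the Olig3 libraries, and 449, 578 and 681 CPM in the GFP libraries. All Olig libraries lay below all GFP libraries. Lrrc2 (chr9:110951545-110984066, + strand) averaged 170 ± 50.7 CPM in the Olig libraries and 569 ± 117 CPM in the GFP libraries, 3.35-fold lower in the Olig libraries (log2 change -1.75, SE 0.267, edgeR adjusted p = 0.0418, 0.00883 to 0.204 with 1 library left out, under the threshold without Olig3 library 3 alone).

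A pair of the genes that fell fall outside the naming rule and were named after their values were seen. ENSMUSG00000095041, which has no symbol in the table and is AC149090.1 in GENCODE on an unplaced scaffold, averaged 40.2 ± 8.52 CPM in the Olig libraries and 133 ± 16.3 CPM in the GFP libraries (edgeR adjusted p = 0.0199, up to 0.162 with 1 library left out). Gm47283, a predicted gene on chromosome Y (90784738 to 90816464), had 1 count in all 6 Olig libraries together and 232 counts in the 3 GFP libraries, at 13.3, 8.12 and 10.6 CPM in the GFP libraries (edgeR adjusted p = 0.0418, up to 0.184 with 1 library left out). The ratio of the GFP to the Olig rate was 440 with a 95% counting interval of 78.2 to 17462. Both are uncertain, because whether either gene shares reads with similar copies elsewhere in the genome was not tested.

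Pcp2 and Pet100 were the genes that rose. Pcp2, also called L7, modulates G proteins in rod bipolar cells and cerebellar Purkinje cells. It had 300.5, 302 and 224 CPM in the Olig2 libraries, 205, 209.8 and 173 CPM in the Olig3 libraries, and 64.0, 79.6 and 69.8 CPM in the GFP libraries. Each Olig library was above each GFP library, and the Olig2 libraries were the higher of the Olig side. Pcp2 (chr8:3623371-3625545, - strand) averaged 236 ± 53.5 CPM in the Olig libraries and 71.1 ± 7.86 CPM in the GFP libraries, 3.31-fold higher in the Olig libraries (log2 change 1.73, SE 0.233, edgeR adjusted p = 0.0250).

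Pet100, a chaperone for assembly of mitochondrial cytochrome c oxidase, lies over Pcp2 on the opposite strand and shares 941 exonic bases with it. It averaged 239 ± 64.5 CPM in the Olig libraries and 70.0 ± 8.40 CPM in the GFP libraries, 3.42-fold higher in the Olig libraries (chr8:3621548-3625848, + strand, log2 change 1.77, SE 0.261, edgeR adjusted p = 0.0382). The sources used here do not give the strand setting of the counting, so reads of these genes cannot be told apart and they count as 1 signal. Both passed when Olig3 library 1 or Olig3 library 3 was left out, and both missed the threshold without each of the other 7 libraries (highest adjusted p 0.177 for Pcp2 and 0.184 for Pet100).

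Bipolar cell genes as a list lay higher beside Pcp2. All 18 were tested, 12 lay higher and 0 lower at an unadjusted p under 0.05, 10 higher without the 3 Malat1-rich libraries and 13 without Olig3 libraries 1 and 3. The list's median was 0.99 pooled, 1.01 in Olig2 and 1.02 in Olig3, and its summed level was 4224 to 5560 CPM in the Olig libraries and 3041 to 3993 CPM in the GFP libraries. Grm6, the glutamate receptor of ON bipolar cells, lay at 52.0, 87.9 and 156 CPM in the Olig libraries, against 18.0 to 32.1 CPM in the GFP libraries (log2 change 1.77, edgeR adjusted p = 0.136), and shares 599 exonic bases with Gm12660 on the other strand. Trpm1, the channel that receptor controls, lay at 392.2, 509 and 620 CPM in the Olig libraries, against 253 to 280.2 CPM in the GFP libraries (log2 change 0.92, adjusted p = 0.139). Neither passed, and neither overlapped between the sides. The part of bipolar cell RNA in the rise of Pcp2 was not tested.

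Photoreceptor genes lay higher as well, with no member past the adjusted threshold. Of the 20 rod genes 18 lay higher and 0 lower at an unadjusted p under 0.05, 13 without the 3 Malat1-rich libraries and 19 without Olig3 libraries 1 and 3. Their median was 1.01 pooled, 0.98 in Olig2 and 1.07 in Olig3. Slc24a1, the sodium, calcium and potassium exchanger of rod outer segments, lay at 894, 1156 and 1404 CPM in the Olig libraries, against 420.4, 584 and 552 CPM in the GFP libraries (log2 change 1.16, edgeR adjusted p = 0.0773). Pde6b, a subunit of the rod phosphodiesterase, lay at 1762, 2148 and 2564 CPM in the Olig libraries, against 858 to 1305 CPM in the GFP libraries (log2 change 0.99, adjusted p = 0.139). The median of the cone list was 1.44, and 10 of its 14 genes lay higher at an unadjusted p under 0.05, 6 without GFP library 3 and 3 without the 3 Malat1-rich libraries. Guca1a, a guanylate cyclase activator of photoreceptors, lay at 914, 1762 and 4026 CPM in the Olig libraries and 415 to 619.6 CPM in the GFP libraries (adjusted p = 0.143). The medians of the rod, cone and bipolar lists were above 0 in both factor groups, but the summed cone level was 3146, 4580 and 4396 CPM in the Olig2 libraries, which overlapped 3670, 4293 and 2975 CPM in the GFP libraries, and the rod share of Olig3 library 3, 7.69%, was under that of GFP library 2, 8.77%. The amacrine cell list stood at 0.65, 2 of its 16 genes being higher and 0 lower at an unadjusted p under 0.05. Of all genes tested, 4.43% lay higher and 3.93% lower. The summed amacrine level, 505 to 1134 CPM in the Olig libraries, lay within the 410 to 1334 CPM of the GFP libraries.

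**Figure D2:**
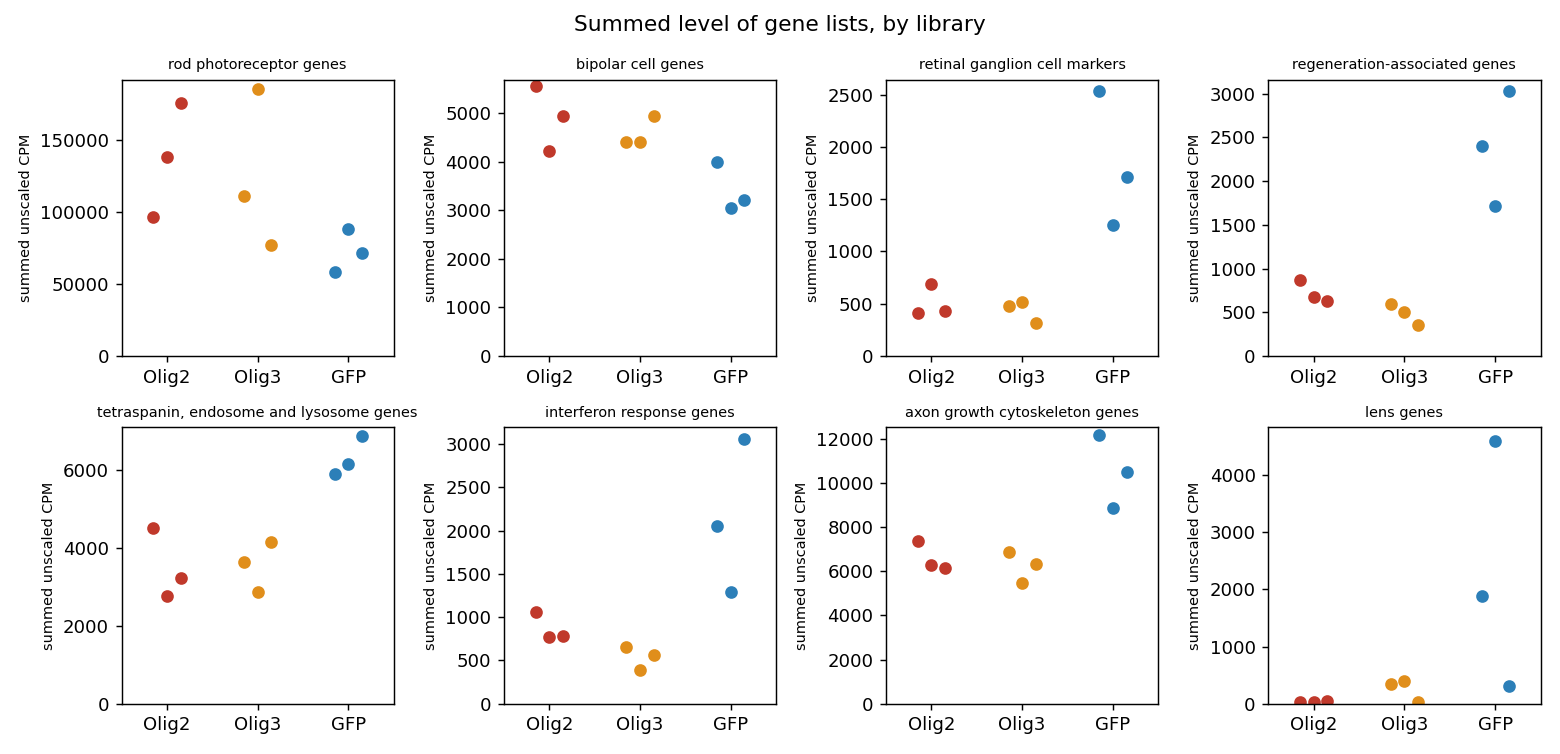
Summed CPM, unscaled (y axis, from 0), of 8 gene lists in the Olig2, Olig3 and GFP libraries (x axis), 1 point a library. Ganglion cell markers lay at 311 to 685 CPM in the Olig libraries and 1249 to 2534 CPM in the GFP libraries, while bipolar genes lay at 4224 to 5560 CPM in the Olig libraries and 3041 to 3993 CPM in the GFP libraries.

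Ganglion cell markers ran the other way. Of 22 on the list 18 were tested, and 7 lay lower and 1 higher at an unadjusted p under 0.05, with 0 past the adjusted threshold. Their median was -1.73 pooled, -1.43 in Olig2 and -2.26 in Olig3. Slc17a6, the vesicular glutamate transporter of ganglion cells, lay at 0, 10.2 and 29.3 CPM in the Olig libraries, against 118 to 133 CPM in the GFP libraries (log2 change -3.25, edgeR adjusted p = 0.215). Nefl, the light neurofilament, lay at 19.2, 61.5 and 93.2 CPM in the Olig libraries, against 154 to 321 CPM in the GFP libraries (log2 change -1.92, adjusted p = 0.178), and shares 1108 exonic bases with Nefm, the medium neurofilament and itself on this list, on the other strand. Tubb3, a neuronal tubulin, lay at 26.0, 36.0 and 49.2 CPM in the Olig libraries, against 119, 91.5 and 72.4 CPM in the GFP libraries (log2 change -1.35, adjusted p = 0.0982). The sides did not overlap in any of the 3. Every statement below on neuronal genes stands beside this lower marker level, and its part in them was not tested.

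Genes that injured neurons express while they regrow axons lay lower too. Of 34 regeneration-associated genes 28 were tested, 15 lay lower and 0 higher at an unadjusted p under 0.05, 16 lower without the 3 Malat1-rich libraries and 17 lower without Olig3 libraries 1 and 3. Some members, such as Ecel1, passed the low-count filter through the GFP libraries alone, so the count lower is partly set by the filter. Their median was -1.66 pooled, -1.16 in Olig2 and -2.10 in Olig3, and their sum 351 to 868 CPM in the Olig libraries and 1720 to 3026 CPM in the GFP libraries. Ecel1, an endopeptidase induced by nerve injury, lay at 0, 0.269 and 1.67 CPM in the Olig libraries, against 24.99, 14.6 and 32.8 CPM in the GFP libraries (log2 change -5.70, edgeR adjusted p = 0.119). Fgf2, a growth factor for neurons and glia, lay at 31.8, 41.7 and 87.6 CPM in the Olig libraries, against 126, 159.7 and 234 CPM in the GFP libraries (log2 change -1.66, adjusted p = 0.119). Fgf2 shares 640 exonic bases with its antisense neighbour Nudt6. Atf3, an injury-induced transcription factor, lay at 1.77, 35.1 and 45.2 CPM in the Olig libraries, against 145, 94.7 and 209.9 CPM in the GFP libraries (log2 change -2.26, adjusted p = 0.215). None of the 3 passed, and in each the 6 Olig libraries were below the 3 GFP libraries.

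Related lists, except that of CNTF, LIF and JAK-STAT genes, had pooled medians below that of all genes. Some lists share members, so they are not separate pieces of evidence. Tubb3 and Nefl are on both the ganglion cell and the axon growth cytoskeleton lists, and Sox9 is on both the Müller glia and the SOX and Kruppel-like factor lists. AP-1 and immediate early genes, 15 of 20 tested, had a median of -0.97 pooled, -0.32 in Olig2 and -1.83 in Olig3, with 4 lower and 0 higher at an unadjusted p under 0.05. Junb, an AP-1 subunit, lay at 42.7, 75.3 and 118 CPM in the Olig libraries, against 204, 239 and 286 CPM in the GFP libraries (log2 change -1.62, edgeR adjusted p = 0.0878). The integrated stress response list stood at -0.85, and 4 of its 23 genes lay lower, 7 without Olig2 library 2 and 8 without Olig3 libraries 1 and 3. Asns, the asparagine synthetase induced by Atf4, lay at 50.3, 70.5 and 91.6 CPM in the Olig libraries, against 96.9 to 198 CPM in the GFP libraries (log2 change -1.20, adjusted p = 0.131). Nupr1, a stress-induced chromatin protein, lay at 7.33, 38.4 and 77.7 CPM in the Olig libraries, against 196, 108 and 489 CPM in the GFP libraries (log2 change -2.72, adjusted p = 0.121). The axon growth cytoskeleton list stood at -0.36, and 10 of its 40 genes lay lower and 0 higher, 6 lower without GFP library 1. The 12 tested SOX and Kruppel-like factor genes had a median of -1.23 with 5 lower and 0 higher, and 3 lower without GFP library 2, GFP library 3, Olig2 library 2, Olig3 library 2 or the 3 Malat1-rich libraries. Klf6, 1 of these factors and linked to axon regrowth, lay at 27.3, 38.9 and 48.6 CPM in the Olig libraries, against 78.9, 70.5 and 98.8 CPM in the GFP libraries (log2 change -1.12, adjusted p = 0.178). Of the CNTF, LIF and JAK-STAT list, Stat3, a transducer of cytokine signals, lay at 52.8, 125 and 140.3 CPM in the Olig libraries, against 211, 248 and 198 CPM in the GFP libraries (log2 change -0.99, adjusted p = 0.261). That list stood at a median of -0.02 pooled, 0.04 in Olig2 and -0.16 in Olig3, beside -0.07 pooled for all genes. Map3k12, the kinase DLK that relays axon injury to the nucleus, lay on the other side at 237, 307 and 332 CPM in the Olig libraries, against 157, 150.0 and 172 CPM in the GFP libraries (log2 change 0.90, adjusted p = 0.113). It shares 1573 exonic bases with Pcbp2 on the other strand, so reads of these genes cannot be told apart.

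Reactive glial genes lay on the lower side, with none past the adjusted threshold. The 12 reactive gliosis genes had a median of -1.97 pooled, -0.99 in Olig2 and -2.44 in Olig3, with 5 lower and 0 higher at an unadjusted p under 0.05, and summed to 121 to 692 CPM in the Olig libraries and 1116 to 1993 CPM in the GFP libraries. Cd44, a hyaluronan receptor of reactive glia, lay at 8.82, 14.1 and 27.0 CPM in the Olig libraries, against 36.5 to 99.5 CPM in the GFP libraries (log2 change -1.92, edgeR adjusted p = 0.139). Gfap, the astrocyte intermediate filament, lay at 0, 6.87 and 27.3 CPM in the Olig libraries, against 78.6 to 129 CPM in the GFP libraries (log2 change -3.49, adjusted p = 0.287). Vim, the intermediate filament vimentin, lay at 30.1, 85.7 and 197 CPM in the Olig libraries, against 202, 294 and 545 CPM in the GFP libraries (log2 change -1.94, adjusted p = 0.215). The Müller glia list had a median of -0.51 pooled, 0.0005 in Olig2 and -1.02 in Olig3. Of its 17 genes 4 lay lower, 2 without GFP library 3, and 2 higher. Glul, the glutamine synthetase of Müller glia, lay at 72.3, 209 and 348 CPM in the Olig libraries and 92.3 to 108 CPM in the GFP libraries, with overlap (log2 change 1.07, adjusted p = 0.401). Sox9, a transcription factor of Müller glia, lay at 12.6, 18.7 and 26.7 CPM in the Olig libraries, against 38.2, 33.6 and 76.2 CPM in the GFP libraries (log2 change -1.39, adjusted p = 0.211). Crym, a thyroid hormone binding protein, lay at 9.39, 128 and 191 CPM in the Olig libraries, against 506 to 2371 CPM in the GFP libraries (log2 change -3.28, adjusted p = 0.121). The cell cycle list stood at -1.93, and 12 of its 26 genes lay lower, but 1 without GFP library 3 and 5 without the 3 Malat1-rich libraries. Top2a, a topoisomerase of dividing cells, lay at 0 to 5.75 CPM in the Olig libraries and 1.80 to 177 CPM in the GFP libraries, the highest being GFP library 3 (adjusted p = 0.202). Such members passed the low-count filter largely through the GFP libraries, so the count of cell cycle genes says little by itself.

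**Figure D3:**
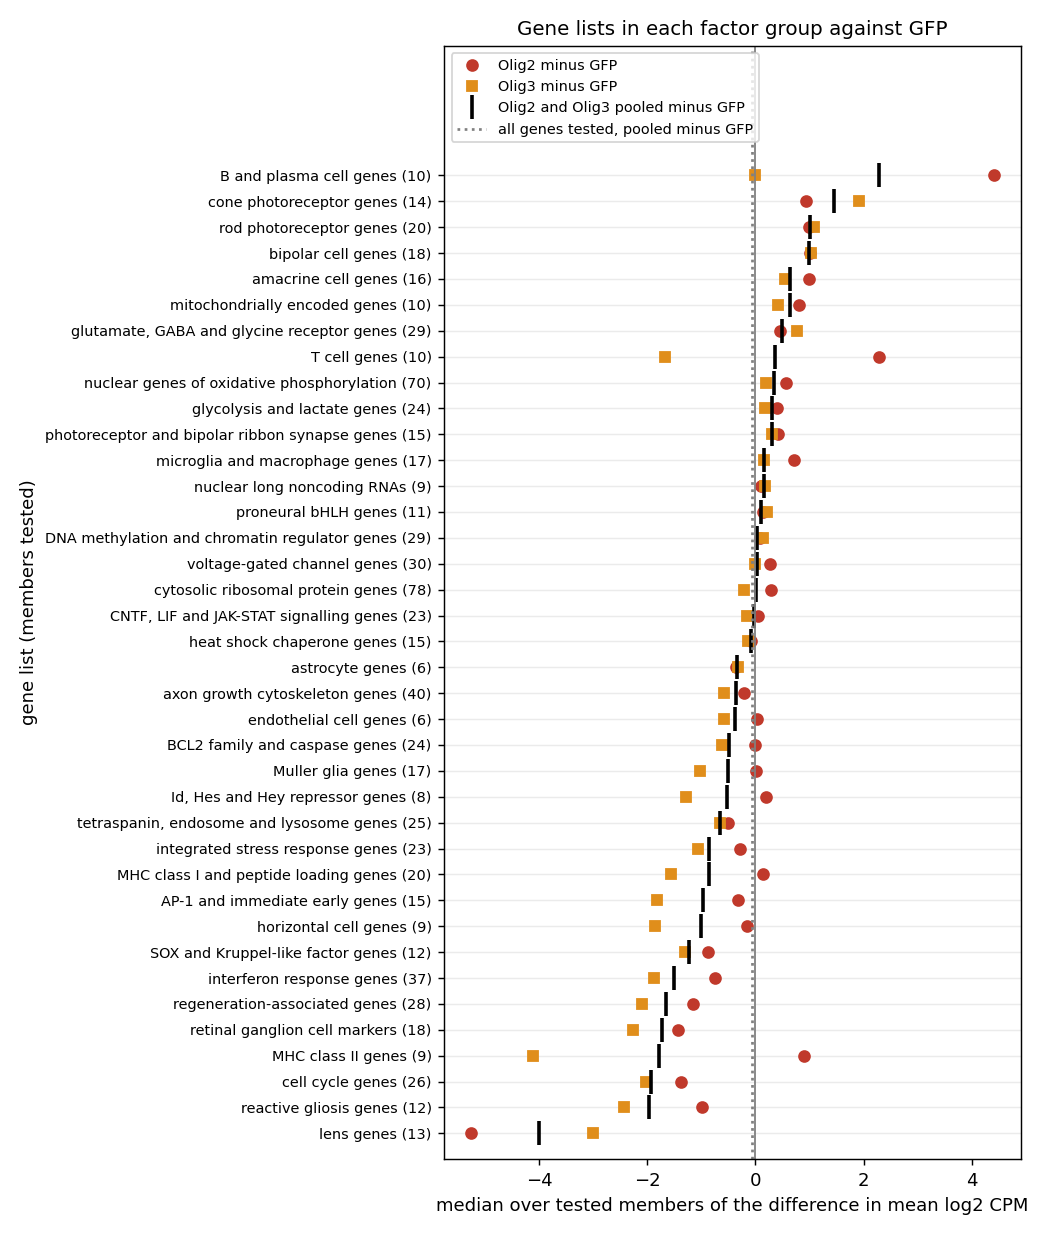
Median over the tested members of each gene list of the difference in mean log2 CPM (x axis) for Olig2 minus GFP, Olig3 minus GFP and both pooled minus GFP, with lists down the y axis and the number of members tested in brackets. Lists with under 5 tested members are left out. The rod, cone and bipolar medians lie to the right in both factors and the ganglion, regeneration and gliosis medians to the left in both. The T cell, MHC class II, ribosomal, and Id, Hes and Hey medians are among those on opposite sides in the 2 factors.

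Genes that Olig factors regulate or work with in the oligodendrocyte and neural lineages had no member past the adjusted threshold. Of 16 oligodendrocyte lineage genes 3 were tested, and 4 had no count in any library. Mbp, myelin basic protein, lay at 0.147, 12.7 and 62.9 CPM in the Olig libraries and 3.08 to 12.3 CPM in the GFP libraries, with overlap (log2 change 1.18, edgeR adjusted p = 0.879). The 11 tested proneural bHLH genes had a median of 0.11, with 1 higher and 0 lower at an unadjusted p under 0.05. That gene, Bhlhe23, a bHLH factor of mouse rod bipolar cells, lay at 17.4, 24.4 and 34.0 CPM in the Olig libraries, against 4.79 to 14.0 CPM in the GFP libraries, without overlap (log2 change 1.32, SE 0.464, edgeR adjusted p = 0.404). The count higher was 0 without GFP library 1, and 2 without GFP library 2, Olig2 library 2 or the 3 Malat1-rich libraries, the last with 1 lower. Bhlhe23 shares 144 exonic bases with Gm14343 on the same strand. The 8 tested Id, Hes and Hey repressors had a median of -0.52 pooled, 0.19 in Olig2 and -1.28 in Olig3, so the factors differed in sign. Id3, an Id protein that blocks bHLH factors, lay at 8.0, 9.93 and 17.3 CPM in the Olig libraries, against 33.8, 53.6 and 74.7 CPM in the GFP libraries (log2 change -2.24, SE 0.375, edgeR adjusted p = 0.0706). Its Olig libraries were all below its GFP libraries, and of that list it was the 1 gene with an unadjusted p under 0.05. Id2 lay at 9.0 to 68.2 CPM in the Olig libraries and 17.8 to 34.8 CPM in the GFP libraries, and Id4 at 4.71 to 27.9 CPM in the Olig libraries and 1.90 to 54.0 CPM in the GFP libraries, each with overlap. Smaller exonic overlaps, of 116 to 295 bases, touch Lamp1, Junb, Usp18, Glul, Id4 and Tpm4 on the other strand and Nav2 and Top2a on the same strand, and reads in such stretches cannot be told apart.

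A wider threshold added 15 genes with adjusted p between 0.05 and 0.1, taken after their values were seen, 2 higher and 13 lower. With them, 4 genes (0.0256% of those tested) lay higher and 22 (0.141%) lower at an adjusted p under 0.1. The 2 higher were Slc24a1 and Cplx3, a complexin of retinal ribbon synapses, which lay at 547, 705 and 1214 CPM in the Olig libraries, against 289.7, 293 and 199 CPM in the GFP libraries (log2 change 1.55, edgeR adjusted p = 0.0773). Fam3c, a secreted cytokine-like protein, came next on the higher side, outside that threshold, at 327, 422 and 507 CPM in the Olig libraries, against 143, 230.3 and 200.2 CPM in the GFP libraries (log2 change 1.13, adjusted p = 0.113). Of the 13 lower genes 12 are reported here. Nav2, a neuron navigator protein of growing axons, lay at 4.69, 11.6 and 19.8 CPM in the Olig libraries, against 67.2, 55.6 and 64.4 CPM in the GFP libraries (log2 change -2.39, adjusted p = 0.0773). Its GFP libraries were close to each other and far above its Olig libraries. Ywhah, a 14-3-3 protein, lay at 127, 238 and 296 CPM in the Olig libraries, against 824, 539 and 536 CPM in the GFP libraries (log2 change -1.47, adjusted p = 0.0773). The others were Id3, Mest, Tpm4, Maged1, Junb, Ipo5, Clic1, Arhgdia, Tubb3 and E2f6, with log2 changes between -1.02 for Mest, which shares 912 exonic bases with Copg2 on the other strand, and -2.25 for Clic1.

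**Figure D4:**
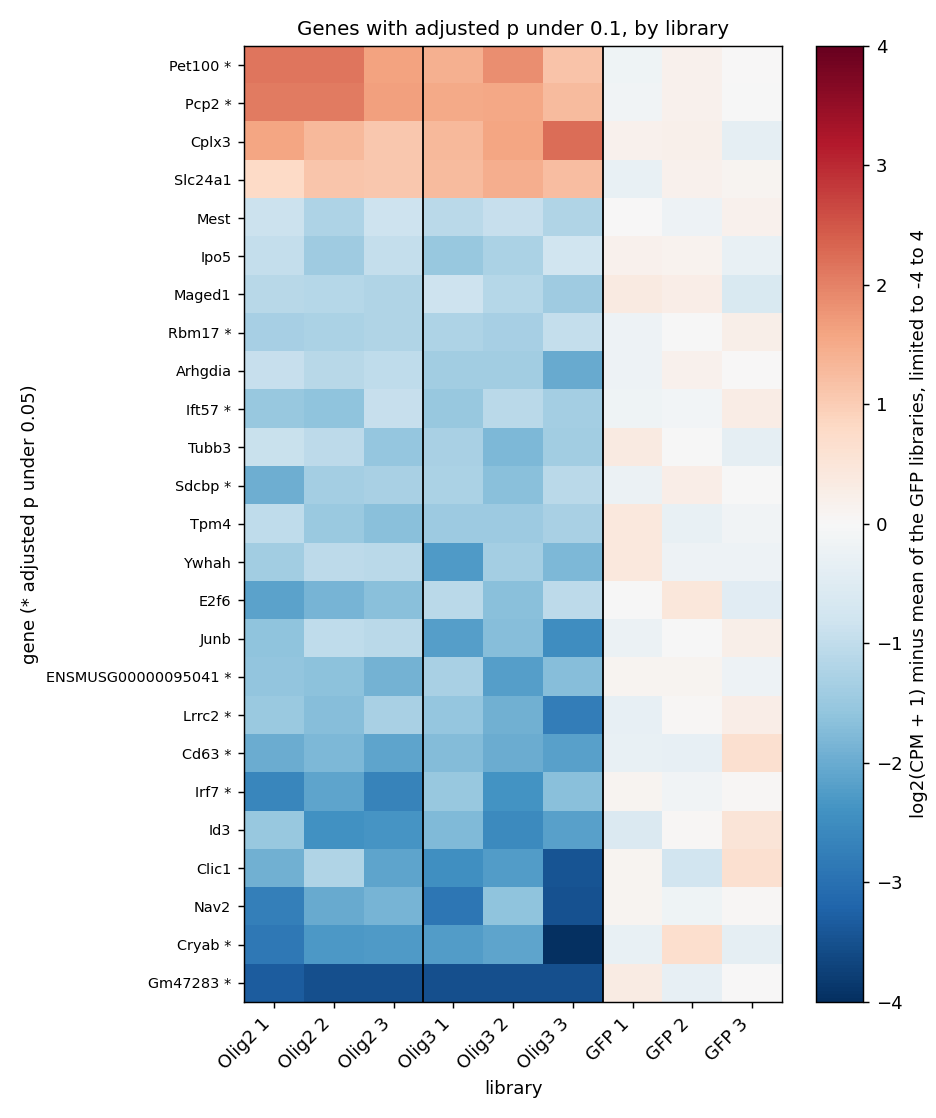
The 25 reported genes with an adjusted p under 0.1 (rows, ordered by pooled log2 change) in the 9 libraries (columns, Olig2, Olig3 and GFP from left to right), coloured by log2(CPM + 1) minus the mean of the GFP libraries, limited to -4 to 4. An asterisk marks the 11 genes with an adjusted p under 0.05. The 4 genes at the top are red in all 6 Olig libraries and the 21 below are blue in them.

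Past the genes that passed, many more shared a side. All 6 Olig libraries lay above all 3 GFP libraries in 458 of the 15609 genes, or 2.93%, and below them in 665, or 4.26%. At an unadjusted p under 0.05 with the same direction in each factor, 692 genes (4.43%) lay higher and 613 (3.93%) lower, and the count lower was 1009 without Olig3 libraries 1 and 3. Of 1321 genes with a pooled unadjusted p under 0.05, 16 had factors in opposite directions and were left out of these counts. The separate counts are tied to how many libraries are compared: without GFP library 1, 2 or 3 they were 824 to 860 higher and 1229 to 1266 lower. Without the 3 Malat1-rich libraries they were 1078 higher and 1508 lower, and without Olig3 libraries 1 and 3 990 higher and 1046 lower. Promoter windows of the genes that lay wholly above held an E-box in 65.9% and of those wholly below in 62.5%, beside 64.3% of the genes tested.

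Lists of metabolism and housekeeping had pooled medians of 0.02 to 0.64, beside -0.07 for all genes. The median was 0.34 for the nuclear genes of oxidative phosphorylation, 0.64 for mitochondrially encoded genes, 0.31 for glycolysis genes and 0.02 for cytosolic ribosomal protein genes. The ribosomal median was 0.28 in Olig2 and -0.21 in Olig3. The summed ribosomal level was lower in each Olig library, at 5687 to 8085 CPM, than in any GFP library, at 8187 to 11369 CPM. Sums of the other lists named here overlapped between the sides. The nuclear sum was 9783 to 11095 CPM in the Olig libraries and 10562 to 10967 CPM in the GFP libraries. At an unadjusted edgeR p under 0.05, 11 of 70 nuclear, 4 of 10 mitochondrially encoded and 4 of 24 glycolysis genes lay higher. On the lower side were 0, 0 and 1, and of 78 ribosomal genes 0 lay higher and 2 lower. Of all genes tested 4.43% lay higher and 3.93% lower. Pet100, already described, was the one member of these that passed. Eno2, the neuronal enolase, lay at 168, 246 and 275 CPM in the Olig libraries and 499, 454 and 217 CPM in the GFP libraries, with overlap through GFP library 3 (log2 change -0.73, edgeR adjusted p = 0.401). It was the 1 glycolysis gene on the lower side, and Aldoc was among the 4 higher. Aldoc lay at 665, 940 and 1087 CPM in the Olig libraries and 633, 748 and 412 CPM in the GFP libraries, with overlap (log2 change 0.62, adjusted p = 0.431). Genes of the BCL2 family and caspases had a median of -0.49 pooled, -0.0001 in Olig2 and -0.63 in Olig3. Xiap, a caspase inhibitor, lay at 153, 275 and 378 CPM in the Olig libraries, against 129.7, 132 and 139.8 CPM in the GFP libraries (log2 change 1.01, adjusted p = 0.200). Ribbon synapse genes, shared by photoreceptors and bipolar cells, had a median of 0.31, and Rims2, an active-zone scaffold among them, lay at 192, 247 and 336 CPM in the Olig libraries, against 142, 126 and 127 CPM in the GFP libraries (log2 change 0.94, adjusted p = 0.139). Rims2 and Xiap did not overlap between the sides, and neither passed.

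The 2 factors differed from each other in a small set of immune genes, which the pooled comparison leaves out. In the test of Olig3 against Olig2, 6 genes (0.0384% of those tested) passed, and all 6 were lower in the Olig3 libraries. None of the 11 common genes passed in it (smallest adjusted p 0.933), and 2 had an unadjusted p under 0.05, as did 5.12% of the genes tested. Igkc, the antibody kappa constant chain made by B and plasma cells, lay at 5.16, 4.25 and 0 CPM in the Olig3 libraries, 7575, 2637 and 3439 CPM in the Olig2 libraries, and 4.34, 18.3 and 2.28 CPM in the GFP libraries (log2 change of Olig3 over Olig2 -10.53, edgeR adjusted p = 0.0132). B2m, the light chain of MHC class I, lay at 40.3, 49.8 and 41.2 CPM in the Olig3 libraries, 244, 151 and 209.6 CPM in the Olig2 libraries, and 114, 69.7 and 130.4 CPM in the GFP libraries (log2 change of Olig3 over Olig2 -2.21, adjusted p = 0.0270). For both genes the Olig2 libraries were the highest. Gene lists of the same kind had medians of opposite sign in the factors: T cell genes had 2.28 in Olig2 and -1.67 in Olig3, and MHC class II genes 0.90 in Olig2 and -4.11 in Olig3. The summed T cell level was 138, 30.6 and 85.8 CPM in the Olig2 libraries and 5.81, 62.8 and 52.8 CPM in the GFP libraries, with overlap. It was 0.311, 2.99 and 0 CPM in the Olig3 libraries. MHC class II genes summed to 286, 1060 and 1072 CPM in the Olig2 libraries, within the range of 84.7, 1526 and 791 CPM in the GFP libraries. Their sum was 29.4, 15.1 and 0.169 CPM in the Olig3 libraries. B and plasma cell genes summed to 25896, 3117 and 7463 CPM in the Olig2 libraries. Their sum was 307, 108 and 192 CPM in the Olig3 libraries, which overlapped 154, 274 and 186 CPM in the GFP libraries. In the pooled test 3 of the 10 tested genes of that list lay higher and 0 lower at an unadjusted edgeR p under 0.05. Jchain, 1 of these, lay at 29.0 to 40.4 CPM in the Olig3 libraries and 7.03 to 23.6 CPM in the GFP libraries (pooled adjusted p = 0.242). Igkc and B2m are named because they passed between the factors, after their values were seen.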

How the data were processed

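Poly-A RNA of 9 picked-cell libraries was measured. The authors deposited whole-number read counts per gene, not normalized. Per the submitters' processing notes, FastQC, HISAT2 and HTSeq were used with mm10. Their versions, any filters and the strandedness of counting are not stated in the sources at hand. All 50764 identifiers matched GENCODE M21.

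The test was the quasi-likelihood F test of edgeR 4.0.16 (R 4.3.3) on counts, TMM factors, filterByExpr (15609 genes), 6 Olig against 3 GFP libraries (7 residual degrees of freedom), Benjamini-Hochberg adjustment over all genes tested, threshold 0.05. Each factor's direction and Olig3 against Olig2 came from 3 group means. Single-gene CPM are TMM-scaled, and summed lists are not. A list's median is that of member differences in mean log2 CPM (prior count 2), and a member count of a list uses the same direction in each factor. Named genes were the 15 called per direction with the smallest p, or, under 5 called, the 5 with the smallest p and libraries not overlapping, predicted symbols left out, plus up to 4 called members of each list or up to 2 by p. Further members are examples taken after their values were seen. Members and lists were chosen with earlier results of these data known. Alternatives included limma 3.58.1 and DESeq2 1.42.0. The scripts were tested on simulated data. The 89 identifiers without a symbol held 0.00220 to 0.0165% of counts. No pair of libraries was merged (lowest chi-square per degree of freedom 29.5). A few results are not reported here.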

Additional observations from a re-analysis of the deposited data

Results flagged for a closer look

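In 11 of 65 genes checked, 1 of the 6 Olig libraries stood apart from the other 5 by more than Dixon's 95% critical value of 0.625. For 6 normal values of 1 group, chance gives about 1 in 20. Here the 6 values come from 2 factor groups, and some lie near 0 CPM. That rate need not hold, so 11 of 65 is not read as an excess. Olig3 library 3 was the highest for the Olig3 gene (87.6 CPM), Rbm17 (112 CPM), Cplx3 (1214 CPM) and Mbp (62.9 CPM). Olig3 library 2 was the highest for Guca1a (4026 CPM), Top2a (5.75 CPM) and Cryba4 (3.5 CPM), and Olig3 library 1 the lowest for Stat2 (11.5 CPM). Olig2 library 2 was the highest for Ecel1 (1.67 CPM), Olig2 library 3 for Ccl5 (88.3 CPM), and Olig2 library 1 for Gm47283 (0.143 CPM, the single count). For the Olig3 gene the Olig side holds a group that received that gene and a group that did not.

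The effect against GFP differed between the factors, by the edgeR quasi-likelihood test of Olig3 over Olig2 with Benjamini-Hochberg adjustment, for Slpi (log2 change -10.86, adjusted p = 0.0409), Igkc (-10.53, adjusted p = 0.0132), Tgtp2 (-9.39, adjusted p = 0.0132), Tgtp1 (-9.06, adjusted p = 0.0365), H2-D1 (-2.29, adjusted p = 0.0132) and B2m (-2.21, adjusted p = 0.0270). In each the 3 Olig3 libraries were lower than the 3 Olig2 libraries. Tgtp1 and Tgtp2 are near-identical copies, so the split of reads between them is uncertain. Leaving out 1 library gave 1 to 161 such genes, 161 without Olig3 library 2 and 1 without Olig3 library 3.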

How the results depend on the processing

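The numbers of genes that rose and fell in the pooled comparison (2 and 9) were 2 and 9 with RLE or TMMwsp scaling and without mitochondrial and ribosomal genes, 1 and 5 with upper-quartile scaling, 2 and 10 with a filter at 10 CPM, 54 and 108 without a filter, 3 and 16 with 3 group means, 4 and 13 with robust estimation, 4 and 22 at an adjusted p under 0.1, 0 and 0 in a test against a fold of 1.5, 7 and 17 with limma-voom, 43 and 84 with sample weights added, and 132 and 118 with DESeq2. Without 1 library they ran from 0 to 3 higher and 0 to 14 lower, without the 3 Malat1-rich libraries they were 0 and 0, and without Olig3 libraries 1 and 3, which had the fewest genes, 8 and 42. Genes with libraries wholly apart (458 higher, 665 lower) ran from 518 to 860 higher and 752 to 1266 lower without 1 library, were 1078 and 1508 without the Malat1-rich libraries, and 990 and 1046 without the 2 Olig3 libraries. Genes differing between the factors (6) ran from 1 to 161 without 1 library and were 82 with DESeq2. The cause of these shifts was not tested.

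The replicate numbers did not pair the samples: of 9 same-numbered pairs of libraries 1 had a correlation of deviations over 0.1 (range -0.063 to 0.113). With a replicate block, 0 genes rose, 0 fell and 8 differed between the factors. The median of all genes moved by -0.117 without the Malat1-rich libraries, 0.121 without the 2 Olig3 libraries and 0.120 without a filter. Across the settings run, of the genes checked only Id4 and Id2, neither past the threshold, turned sign: without 1 library Id4 ran from -0.88 to 1.44 on the log2 scale and Id2 from -0.25 to 0.63, and Id4 had 0.24 with the replicate block, 0.61 with limma-voom and 0.74 with sample weights. List counts without libraries were added after seeing the data. With 3 GFP libraries and 10 to 20 picked cells each, a gene that did not pass is not shown to be unchanged, and low genes are limited by the 0.430 to 0.560 CPM floor.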
